A study of Mus musculus with 6 samples.

Results

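Neurofilaments and neuronal microtubules form the internal scaffold of axons and dendrites. The 10 genes described here, chosen by name out of 29659 in the table, were the neurofilament subunits Nefl, Nefm and Nefh, the related filament gene Ina, the microtubule-associated genes Map2, Mapt, Map1b and Dcx, the tubulin Tubb3 and the stathmin Stmn2. They were assembled because Nefl was lower in the mutant, and the question was whether the other filament subunits or general neuronal maturation genes followed it. The values that chose the set were those of Nefl: its log2 fold change in the authors' deposited table was -1.18, and it was 1 of 122 genes marked significant there. Nefl is therefore described below without a test. The remaining 9 genes were named for their roles, with earlier results of these data known. They are given with the test over the whole table, in the same contrast. All 10 of 10 passed the filter on low counts, as did 16551 genes in all.

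The tissue was the lateral ganglionic eminence (LGE), the embryonic source of striatal projection neurons, dissected from C57BL/6 mice at embryonic day 16.5 and profiled by RNA sequencing of whole tissue. The 3 control libraries carried Dlx5/6-Cre alone. The 3 mutant libraries, called Zfhx3-CKO, carried the same Dlx5/6-Cre with Zfhx3F/F, both copies of the transcription factor gene Zfhx3 being floxed. Cre driven by Dlx5/6 sequences acts in forebrain GABAergic cells, so dissected cells outside that lineage keep Zfhx3. The labels give neither litter nor pooling, and they do not say that libraries came from separate animals, so p-values measure only the spread between libraries, which may be technical. In bulk tissue, fewer cells of a type and less RNA per cell cannot be told apart.

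Library totals ran from 15938590 to 16753355 counts in controls and from 18960574 to 20311799 in Zfhx3-CKO. Zfhx3 itself was at 134, 135 and 101 CPM (counts scaled to library size) in control libraries 1 to 3 and at 98.8, 87.4 and 99.4 in Zfhx3-CKO. The groups did not overlap, but the difference missed the threshold (edgeR adjusted p = 0.091 for a log2 fold change of -0.37, SE 0.12). The counts cover the whole gene, not the deleted part alone. Xist had 5 to 9 counts in each control and 55947 to 59631 in each Zfhx3-CKO library, while 4 Y-linked genes summed to 4939 to 5451 counts in controls and 5 to 8 in Zfhx3-CKO. Sex and genotype thus split the libraries identically and cannot be told apart for any gene below, including the X-linked Dcx. Striatal projection neuron markers were present in every library and summed to 4156 to 4691 CPM in controls and 3523 to 3799 CPM in Zfhx3-CKO. Of 19 tested, 7 were lower, among them Ebf1 (13.4% of control), Ikzf1 (14.4%), Foxp1 (44.5%), Bcl11b (70.7%) and Gad2 (78.3%), 5 were higher (Sp9, Six3, Adora2a, Penk and Drd2) and 7 did not pass, among them Meis2, at 843 to 909 CPM in controls and 825 to 908 CPM in Zfhx3-CKO. Over all 16551 genes tested, 3.49% passed as lower and 3.87% as higher (edgeR adjusted p under 0.05).

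Neurofilaments are neuronal intermediate filaments that set axon calibre, built from a light (Nefl), a medium (Nefm) and a heavy (Nefh) subunit, usually with α-internexin (Ina) as a partner. Assembly requires Nefl or Ina, Ina is prominent early in neuronal development, and Nefh accumulates late as axons mature. Microtubules are polymers of tubulins such as Tubb3, bundled by Map2 in dendrites and by Mapt (tau) in axons, while Map1b and Dcx (doublecortin) serve growing and migrating neurons and Stmn2 regulates microtubule turnover in growth cones.

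Nefl and Nefm are neighbours on mouse chromosome 14, and their annotated transcripts share sequence on opposite strands. Nefl lies at chr14:68083863-68089095 on the plus strand and Nefm at chr14:68082590-68124846 on the minus strand (GRCm38). In GENCODE vM21, exon 4 of the transcript Nefm-202 runs over exon 1 of Nefl for 1108 bases, which is 32.8% of the exonic length of Nefl and 19.2% of that of Nefm. Of these bases, 1008 code for protein in Nefl-201 and 144 in Nefm-202. The sequences below show the edge of the shared stretch in each transcript, because Nefl was lower in the mutant while Nefm did not pass the test, and a read from this stretch does not carry its strand in a kit that does not mark it. Each is 30 bases, 5′ to 3′, and the 15 capitals are the same genomic bases read on opposite strands, at chr14:68084956-68084970. In Nefl-201 the lower-case bases continue through exon 1 to position 68084985, and in Nefm-202 they are the end of exon 3, before the splice joint.
Nefl-201: AAGCAGCTGCAGGAGctagaggacaagcag
Nefm-202: gagatctcaaagccaCTCCTGCAGCTGCTT

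**Figure D1:**
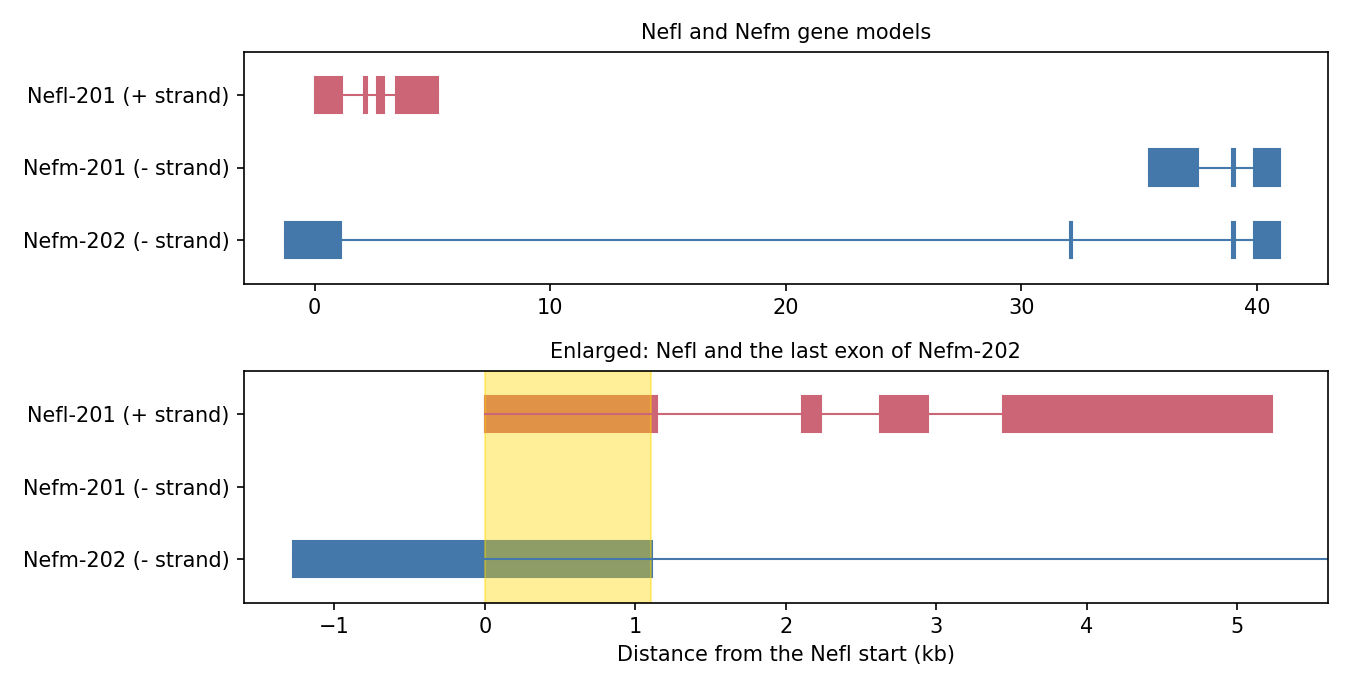
Exons (boxes) and introns (lines) of the transcripts of Nefl and Nefm, by distance from the Nefl start in kilobases, with the lower panel enlarged around Nefl. The yellow band is the 1108-base stretch that Nefl exon 1 shares with the last exon of Nefm-202 on the opposite strand; Nefm-201 does not reach it.

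The sources used here do not say how reads in the shared stretch were assigned. The gene lengths implied by the deposited counts and FPKM (fragments per kilobase of exon, scaled to library size) were 3380 bases for Nefl and 5782 for Nefm, the full exonic lengths with the shared stretch in both. Over the 3334 bases of Nefm-201, which lacks that exon, the Nefm counts would stand at 13.4, 12.9 and 12.5 FPKM in controls and 13.0, 11.9 and 15.8 in Zfhx3-CKO. Levels of Nefl and Nefm relative to each other therefore depend on this annotation. A change between groups uses the same length in both, but reads of the shared stretch counted to the other gene would still enter it. The part of such reads in the fitted changes of Nefl and Nefm was not tested.

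Nefl was the member with the lowest Zfhx3-CKO level relative to control. Its CPM was 21.3, 25.7 and 24.3 in control libraries 1 to 3 and 8.48, 5.35 and 11.3 in Zfhx3-CKO libraries 1 to 3. Every Zfhx3-CKO library lay below every control, with library 2 lowest. The means were 23.8 ± 2.25 (SD, n = 3) and 8.37 ± 2.97 (SD, n = 3), so that Zfhx3-CKO stood at 35.2% of control. The fitted log2 fold change, Zfhx3-CKO over control, was -1.51 (SE 0.24), where 1 unit is a doubling. In raw counts, Nefl had 357, 408 and 406 in controls and 173, 101 and 220 in Zfhx3-CKO, a depth at which each value rests on at least 101 counts.

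Nefm, the medium subunit and the gene beside Nefl, was at 44.6, 43.3 and 41.3 CPM in controls and 43.2, 39.8 and 53.1 CPM in Zfhx3-CKO. The Zfhx3-CKO libraries lay on both sides of the control range. The means were 43.03 ± 1.68 CPM in controls and 45.4 ± 6.92 CPM in mutants (SD, n = 3 per group). On the log2 scale the fitted change was 0.08 (SE 0.11, edgeR quasi-likelihood adjusted p = 0.717, 95% interval -0.18 to 0.33). Its sign was not stable: the value was -0.05 without Zfhx3-CKO library 3. As a description, the FPKM of Nefl was 81.9%, 102% and 101% of that of Nefm in controls and 33.6%, 23.0% and 36.3% in Zfhx3-CKO. Reads of the shared stretch could belong to either gene.

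Nefh, the heavy subunit that appears late, was barely expressed at this age. It had 38, 49 and 45 counts in controls and 62, 17 and 65 in Zfhx3-CKO, or 2.27, 3.09 and 2.69 CPM against 3.04, 0.9003 and 3.33 CPM. Zfhx3-CKO library 2 was far below the others, while libraries 1 and 3 were inside or above the control range. The log2 fold change was -0.14 (SE 0.42, edgeR adjusted p = 0.868, 95% interval -1.10 to 0.82), an interval that reaches past a fall of 1 unit, and it turned to 0.25 without Zfhx3-CKO library 2.

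Ina, which encodes α-internexin, was the most abundant of the filament genes per length. It stood at 249, 255 and 239 CPM in controls and 199.5, 170.3 and 297 CPM in Zfhx3-CKO. Libraries 1 and 2 were below all controls and library 3 above all of them, so the SD over Zfhx3-CKO (66.4 CPM) was larger than that over controls (8.27 CPM). The log2 fold change was -0.16 (SE 0.18, edgeR adjusted p = 0.628, 95% interval -0.56 to 0.25). It was 0.01 without Zfhx3-CKO library 2 and -0.42 without library 3 (adjusted p = 0.0157 in the latter fit). In GENCODE vM21, 14.1% of the exonic length of Ina (456 bases) overlaps the gene Nt5c2 on the opposite strand.

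**Figure D2:**
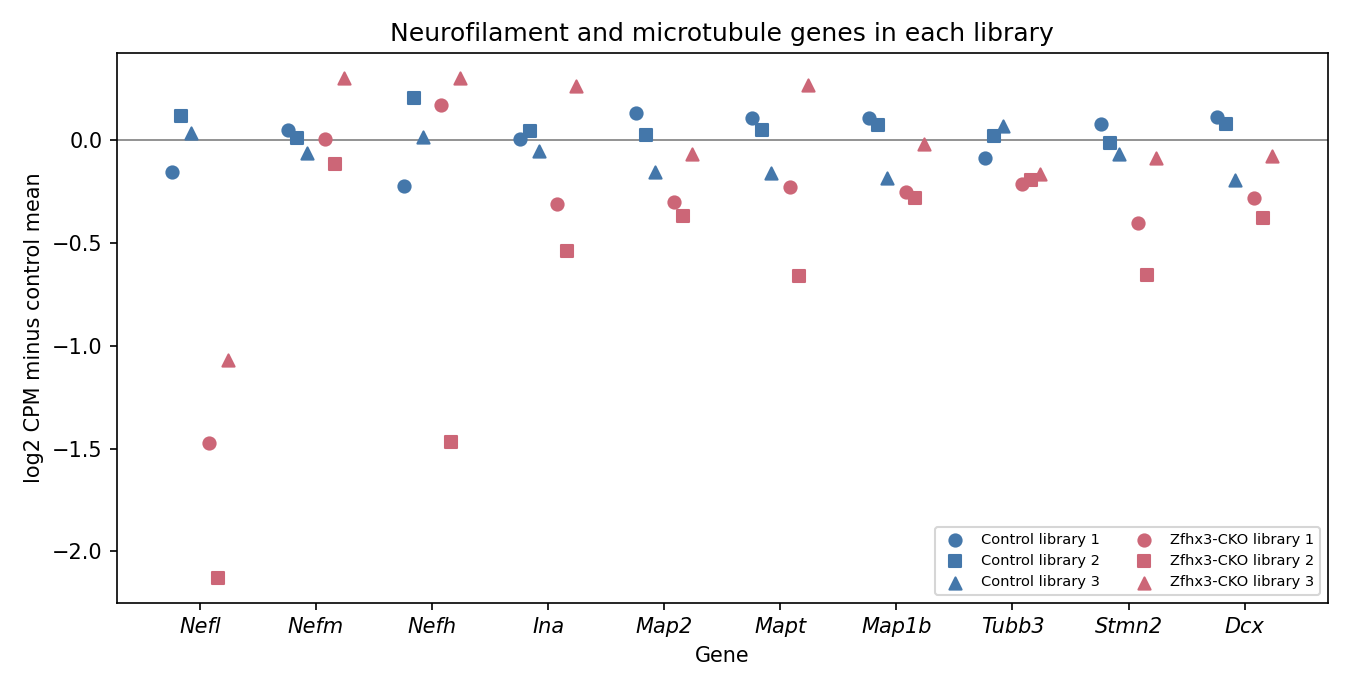
The log2 CPM of each gene in each library minus the mean of its control libraries (vertical axis), with 1 point per library. Nefl is the gene in which all 3 Zfhx3-CKO points lie below -1; Nefm sits around 0, and Zfhx3-CKO library 3 is the highest of the 3 mutant libraries for every gene.

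Among the microtubule-associated genes, Map2, which stabilises dendritic microtubules, was at 1369.8, 1274 and 1123 CPM in controls and 1016, 971 and 1197 CPM in Zfhx3-CKO. Zfhx3-CKO libraries 1 and 2 lay below the controls and library 3 inside their range. Its log2 fold change was -0.24 (SE 0.10, edgeR adjusted p = 0.176), and without Zfhx3-CKO library 3 it was -0.34 (adjusted p = 0.0384). Map1b, which acts in growing axons, was at 2362, 2308 and 1928 CPM in controls and 1841, 1803 and 2161 CPM in Zfhx3-CKO. Library 3 again lay within the control range, and the log2 fold change was -0.18 (SE 0.10, edgeR adjusted p = 0.288). Dcx, which binds microtubules in migrating young neurons, was at 1765, 1722 and 1424 CPM in controls and 1340.4, 1255 and 1544 CPM in Zfhx3-CKO. Its log2 fold change was -0.25 (SE 0.11, edgeR adjusted p = 0.184), and here too library 3 overlapped the controls.

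Map2, Map1b and Dcx had similar profiles over the 6 libraries. In control libraries 1 to 3, relative to their own control mean, Map2 stood at 0.13, 0.03 and -0.16 log2 units, Map1b at 0.11, 0.08 and -0.18, and Dcx at 0.11, 0.08 and -0.19. In Zfhx3-CKO libraries 1 to 3 the values were -0.30, -0.37 and -0.06 for Map2, -0.25, -0.28 and -0.02 for Map1b, and -0.28, -0.38 and -0.08 for Dcx. All 3 genes were lowest in Zfhx3-CKO library 2, and all 3 had control library 3 below the other controls. Neither trait was particular to them. Of the 10 genes, 9 had library 2 as the lowest mutant library and 7 had control library 3 as the lowest control. Their promoters, taken from RefSeq (GRCm38.p6), are shown because Map2, Map1b and Dcx had these similar profiles. The RefSeq table held 5 of the 10 genes, namely Map2, Tubb3, Map1b, Ina and Dcx. Of the 250 bases before each RefSeq start, those outside the deposited gene interval are printed 5′ to 3′ along the gene, 194 for Map2 (chr1:66175079-66175272, plus strand), 250 for Map1b (chr13:99516603-99516852, minus strand) and 158 for the more upstream of the Dcx windows (chrX:143933312-143933469, minus strand). Capitals mark matches, on either strand, to the EBF motif CCCNNGGG, the ISL1 motif CTAATG (read CATTAG on the other strand) or the TATA box letters TATAAA.
Map2: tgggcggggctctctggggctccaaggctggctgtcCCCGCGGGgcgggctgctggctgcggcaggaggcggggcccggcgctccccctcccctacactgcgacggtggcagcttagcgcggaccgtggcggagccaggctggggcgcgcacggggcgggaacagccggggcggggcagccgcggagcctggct
Map1b: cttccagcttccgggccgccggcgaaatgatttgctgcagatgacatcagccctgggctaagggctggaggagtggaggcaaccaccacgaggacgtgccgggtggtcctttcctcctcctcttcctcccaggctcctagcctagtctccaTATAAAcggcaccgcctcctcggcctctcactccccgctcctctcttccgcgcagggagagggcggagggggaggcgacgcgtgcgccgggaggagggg
Dcx: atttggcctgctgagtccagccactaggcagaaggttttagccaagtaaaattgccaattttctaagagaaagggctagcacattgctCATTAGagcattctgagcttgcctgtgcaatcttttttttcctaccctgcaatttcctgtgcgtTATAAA

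The 3 promoters differed in composition and in the letters they held. G and C made up 81.2% of the 250-base window of Map2, 66.4% of that of Map1b and 41.6% of that of Dcx, against a median of 52.4% over 32851 windows. Map2 had 1 EBF match, 214 to 207 bases before the RefSeq start. Map1b had TATAAA 99 to 94 bases before its start, and Dcx had CATTAG at 162 to 157 and TATAAA at 98 to 93 bases before its start. Of all 32851 windows of that length, 11.8% held the EBF letters, 6.36% the ISL1 letters and 12.4% TATAAA. A match describes these letters and is not evidence of a bound factor. The windows of Tubb3 and Ina held none of the 3 motifs.

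Mapt, which encodes tau, was at 797, 764 and 662 CPM in controls and 629.8, 468 and 891 CPM in Zfhx3-CKO. Its Zfhx3-CKO libraries straddled the controls, library 2 being the lowest of the 6 and library 3 the highest. The log2 fold change was -0.16 (SE 0.20, edgeR adjusted p = 0.662, 95% interval -0.62 to 0.30), and it was 0.04 without library 2.

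Tubb3, the neuron-specific β-tubulin, and Stmn2, the growth-cone stathmin, were the genes besides Nefl whose groups did not overlap. Tubb3 was at 1613, 1737 and 1794 CPM in controls and 1479, 1499 and 1528 CPM in Zfhx3-CKO. The Zfhx3-CKO libraries were close together (1502 ± 24.7 CPM, SD, n = 3) and stood at 87.6% of control, with a log2 fold change of -0.19 (SE 0.06, edgeR adjusted p = 0.104, 95% interval -0.34 to -0.05). Stmn2 was at 526, 493 and 476 CPM in controls and 377, 316 and 469 CPM in Zfhx3-CKO. Library 3 was just under the lowest control, and the log2 fold change was -0.36 (SE 0.13, edgeR adjusted p = 0.123, 95% interval -0.66 to -0.07). Stmn2 passed the threshold with no low-count filter (adjusted p = 0.039) and without Zfhx3-CKO library 3 (log2 fold change -0.52, adjusted p = 0.0084).

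Leaving Nefl aside, 0 of the other 9 genes passed the threshold in either direction. Over all 16551 genes tested with edgeR, 3.49% were called lower, 3.87% higher and 7.36% either way. At an unadjusted p under 0.05 there were 4 of the 9, against 25.6% of all genes, and DESeq2 also called 0 of the 9. Fitted changes were below 0 in 8 of the 9, against 49.9% of all genes, with a median of -0.18 against 0.00. With Nefl included, the groups did not overlap, with Zfhx3-CKO lower, in 3 of 10, against 15.9% of all genes; the reverse held in 0 of 10, against 15.5%. The set was built around Nefl in this same contrast, so these counts describe it and nothing is read from them.

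**Figure D3:**
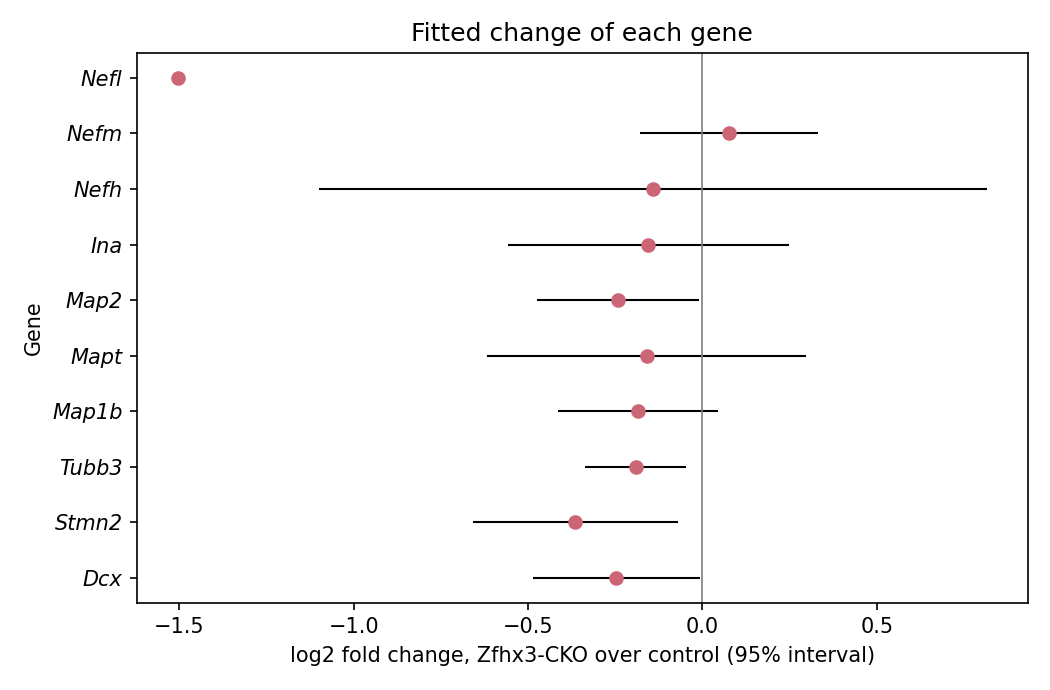
Fitted log2 fold change of each gene, Zfhx3-CKO over control (horizontal axis), with the 95% interval from the edgeR fit as a line; Nefl, which chose the set, has no interval. Nefl stands at -1.51 and the other 9 genes between -0.36 and 0.08.

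The order of the genes by level per length was the same in both groups. Control means were 918 FPKM for Tubb3, 186 for Map1b, 129 for Dcx, 98.4 for Mapt, 89.0 for Stmn2, 76.4 for Ina, 76.3 for Map2, 7.44 for Nefm, 7.04 for Nefl and 0.672 for Nefh. The control libraries of Mapt and Stmn2 overlapped, as did those of Ina and Map2 and those of Nefm and Nefl, so these neighbours in the order are not separated. In Zfhx3-CKO the means were 802 FPKM for Tubb3, 163 for Map1b, 109 for Dcx, 87.7 for Mapt, 68.9 for Stmn2, 68.4 for Ina, 64.3 for Map2, 7.82 for Nefm, 2.47 for Nefl and 0.605 for Nefh. There each of Dcx, Mapt, Stmn2 and Ina overlapped the next in the order, whereas Nefm and Nefl did not overlap (6.85 to 9.10 against 1.58 to 3.31 FPKM). The length behind the Map1b values, 11852 bases, is not the 15846 exonic bases of GENCODE vM21, so its level depends on the annotation. The same holds for Nefm. Over the 3334 bases of Nefm-201, its control libraries (12.5 to 13.4 FPKM) would not overlap those of Nefl (6.30 to 7.57 FPKM).

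**Figure D4:**
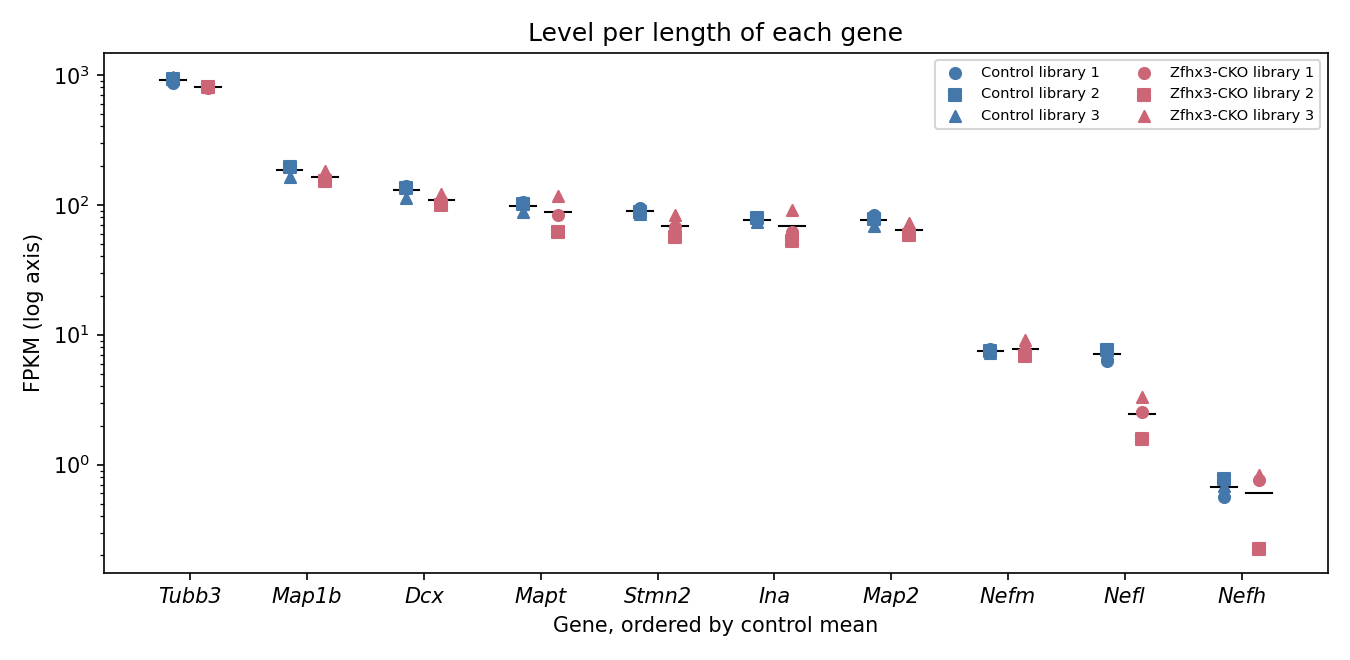
Deposited FPKM on a log axis for each gene, ordered by control mean, with 1 point per library and a line at each group mean. At the deposited gene lengths, Nefl and Nefm share a level in controls (7.04 and 7.44 FPKM) and separate in Zfhx3-CKO (2.47 and 7.82 FPKM). Over the shorter Nefm-201, Nefm would stand above Nefl in controls too.

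The genes differed in how they varied between libraries of the same genotype. Zfhx3-CKO library 2 was the lowest mutant library for 9 of the 10 genes, all but Tubb3, and library 3 was the highest for 10 of 10. Library 2 lay below every control for 10 of 10 genes, library 1 for 8 of 10, all but Nefm and Nefh, and library 3 for 3 of 10: Nefl, Tubb3 and Stmn2. Leaving out Zfhx3-CKO library 3 brought 3 of the 9 genes other than Nefl past the threshold as lower, Ina, Map2 and Stmn2, where 6.06% of all genes were called lower and 6.47% higher. Library 3 was the highest mutant library for each gene, so leaving it out lowers the fitted changes by construction. Nothing is read from these calls. With library 2 as the lone mutant library, whose spread is then assumed to be like that of the others, 4 of the 9 passed as lower: Nefh (log2 fold change -1.57), Ina (-0.54), Mapt (-0.66) and Stmn2 (-0.66), where 4.93% of all genes did and 4.97% were called higher. Without library 2, 0 of the 9 passed, at a background of 3.61% lower and 5.11% higher, and 5 of the 9 fitted changes were below 0.

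Markers of other cells also moved between the mutant libraries. The 17 markers of cortical excitatory neurons summed to 353 to 369 CPM in controls and to 529, 399 and 654 CPM in Zfhx3-CKO libraries 1 to 3, with none at 0. Cux2 and Mef2c gave the largest parts of the control sums, at 129 to 141 and 84.5 to 95.3 CPM. In Zfhx3-CKO libraries 1 to 3 Cux2 was at 141, 137 and 161 CPM and Mef2c at 59.7, 60.0 and 94.1 CPM. Neither passed the threshold, and Mef2c was the 1 tested marker with a fitted change below 0 (-0.36). Of 16 tested, 2 were higher, the transcription factor genes Lhx2 and Bhlhe22, and 0 lower, against 3.87% higher and 3.49% lower over all genes. Bhlhe22 was at 6.67, 1.91 and 14.6 CPM in Zfhx3-CKO libraries 1 to 3 and at 0.659 to 1.31 CPM in controls. Lhx2 was instead highest in library 2, at 112, 121 and 84.0 CPM, against 51.0 to 67.5 CPM in controls. In those same mutant libraries the list median was 1.55, 0.03 and 1.69 log2 units over control. Zfhx3-CKO library 2, without that rise in the median, had the lowest level of 9 of the 10 cytoskeletal genes. The 13 progenitor markers summed to 2969 to 3231 CPM in controls and to 3908, 4182 and 3189 CPM in Zfhx3-CKO, with 5 higher, among them the proliferation genes Mki67 and Top2a. The 12 markers of the neighbouring medial ganglionic eminence, 3 of them higher and 1 lower, summed to 514 to 549.5 CPM in controls and to 532, 649 and 731 CPM in Zfhx3-CKO. For the progenitor and medial ganglionic eminence counts, too, the shares over all genes were 3.87% higher and 3.49% lower. The 4 blood markers summed to 2552 CPM in library 2 and to 701 to 1080 CPM elsewhere. Peripheral and sensory neuron genes such as Prph and Pou4f1, whose cells are rich in neurofilaments, were at most at 0.539 and 0.847 CPM. The part of these cell types in the levels above was not tested.

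Genes for neuronal maturation in general, such as those for synaptic and growth-associated proteins, were taken from a list of 25. Of 24 tested, 1 was lower, 1 higher and 22 did not pass, against 3.49% lower and 3.87% higher over all genes. The median log2 fold change was -0.07, against 0.00 over all genes. Elavl4, a neuronal RNA-binding protein gene, fell from 204, 193 and 195 CPM in controls to 157, 147 and 156 CPM (log2 fold change -0.37, edgeR adjusted p = 0.0122). Basp1, a growth-cone membrane protein gene, rose from 505, 499.7 and 524 CPM to 700.0, 609.8 and 710.2 CPM (0.40, adjusted p = 0.0177). Both calls were lost on leaving out Zfhx3-CKO library 1 or either of controls 1 and 2, with adjusted p up to 0.0807 for Elavl4 and 0.101 for Basp1. The list median had the same order of mutant libraries as that of the 10 genes, at -0.14, -0.35 and 0.28 log2 units in Zfhx3-CKO libraries 1 to 3. Without library 3, 8 list genes passed as lower and 1 as higher, where 6.06% of all genes were called lower and 6.47% higher. That fit leaves out the mutant library in which the list median was highest, which lowers the fitted changes of the list by construction.

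**Figure D5:**
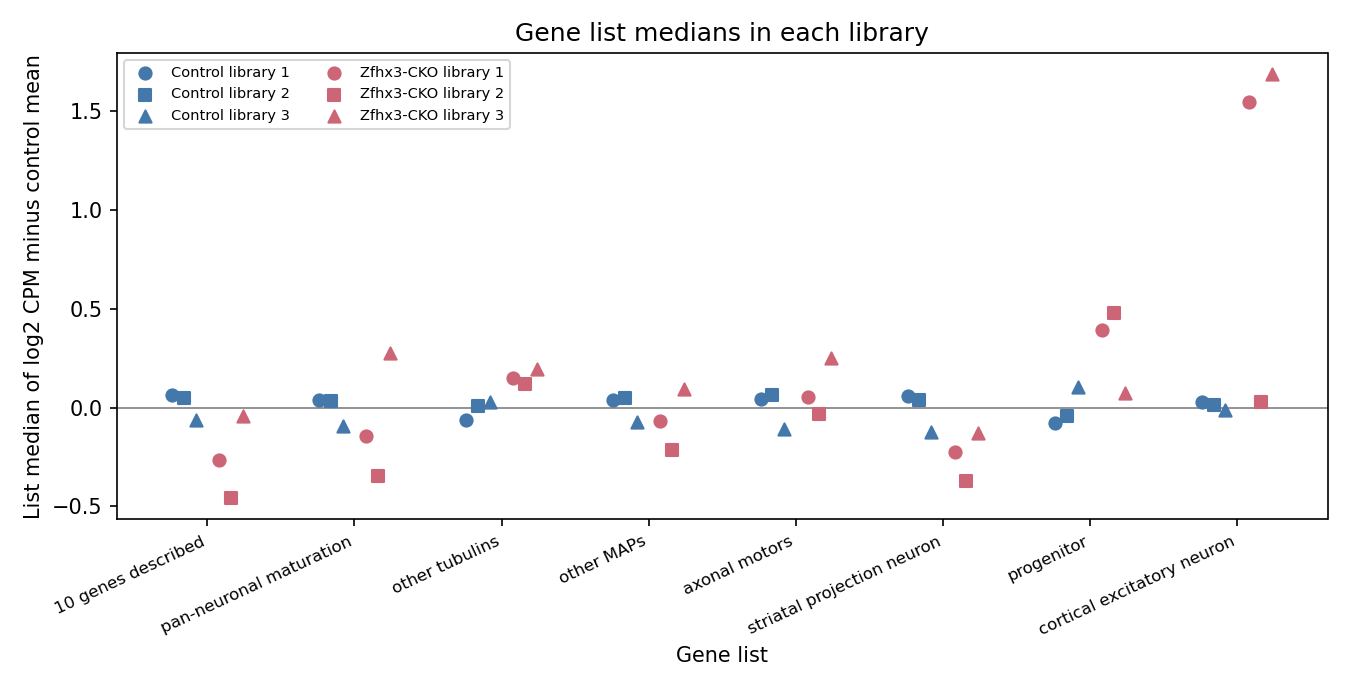
Median over each gene list of log2 CPM minus the control mean (vertical axis), with 1 point per library. The 10 genes and the pan-neuronal list are lowest in Zfhx3-CKO library 2 (-0.46 and -0.35), and cortical excitatory markers stand at 1.55 and 1.69 in Zfhx3-CKO libraries 1 and 3.

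The other tubulins, the building blocks that Tubb3 joins, had no member past the threshold among 14 tested, and their median log2 fold change was 0.16. At an unadjusted p under 0.05 there were 4 of 14, against 25.6% of all genes. Tubb4b had the smallest p and was at 158, 185 and 197 CPM in controls and 224, 257 and 212 CPM in Zfhx3-CKO (0.36, edgeR adjusted p = 0.0681). The list median was positive in every Zfhx3-CKO library (0.15, 0.12 and 0.19 log2 units), whereas Tubb3 was below its control mean in all 3 (-0.21, -0.19 and -0.16).

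Among 28 other microtubule-associated protein genes, 1 fell, 1 rose and 26 did not pass, against 3.49% lower and 3.87% higher over all genes. The median log2 fold change was -0.07. Dpysl2, whose product binds tubulin and acts in axon growth, fell from 262, 230.1 and 284 CPM in controls to 147, 162 and 155 CPM (-0.74, SE 0.09, edgeR adjusted p = 0.0030). Map7d1, a MAP7-domain gene, rose from 220, 226 and 255 CPM to 310, 297 and 326 CPM (0.41, adjusted p = 0.0182). Dpysl2 kept its call without any single library. Map7d1 lost it without Zfhx3-CKO library 1 and without either of controls 1 and 2 (adjusted p up to 0.106). Without Zfhx3-CKO library 3 the list had 9 lower and 1 higher, against 6.06% lower and 6.47% higher over all genes. Here too the library left out was the mutant library with the highest list median.

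Of 14 genes that fold or modify tubulin, 1 rose, 1 fell and 12 did not pass, against 3.87% higher and 3.49% lower over all genes. Their median was 0.02. Vash1, a tubulin carboxypeptidase that removes the terminal tyrosine of α-tubulin, rose from 63.5, 55.1 and 50.2 CPM in controls to 122, 114 and 122 CPM in Zfhx3-CKO (1.09, SE 0.09, edgeR adjusted p = 6.04e-04). Every Zfhx3-CKO library was above every control, and the call held without any single library. Atat1, the α-tubulin acetyltransferase, fell from 322, 341 and 329 CPM to 267, 269 and 292 CPM (-0.26, adjusted p = 0.049). Its call was lost on leaving out any library other than Zfhx3-CKO library 3, with adjusted p up to 0.203.

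Of 7 other intermediate filament genes tested, 2 rose, 1 fell and 4 did not pass, against 3.87% higher and 3.49% lower over all genes. Their median was 0.36. Lmnb1, a nuclear lamin gene, rose from 429, 438 and 452 CPM in controls to 675, 721 and 581 CPM (0.58, edgeR adjusted p = 0.0068) and kept its call without any single library. Lmnb2, a second lamin gene, rose from 83.9, 88.0 and 95.01 CPM to 116, 124 and 104 CPM (0.36, adjusted p = 0.0379), a call lost on leaving out any library other than Zfhx3-CKO library 3 (adjusted p up to 0.148). Gfap, the astroglial filament gene, fell from 5.56, 2.71 and 7.66 CPM to 1.13, 1.11 and 0.615 CPM (-2.47, SE 0.42, adjusted p = 0.0118), and lost its call without control library 1 or Zfhx3-CKO library 1 (adjusted p up to 0.0686). The rise of the progenitor markers described above fell in the same libraries as that of Lmnb1 and Lmnb2, highest in Zfhx3-CKO library 2 and lowest in library 3, and its part in them was not tested.

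Genes that work with Dcx in neuronal migration had 1 of 11 higher and 0 lower, against 3.87% higher and 3.49% lower over all genes. Their median was 0.11. Lrp8, a reelin receptor gene, rose from 349, 338 and 304 CPM in controls to 445, 385 and 481 CPM (0.40, edgeR adjusted p = 0.0395), a call lost without any 1 of the control libraries or Zfhx3-CKO library 1 (adjusted p up to 0.132). No gene passed among 17 axonal motors, 9 ankyrin, spectrin and axonal membrane genes, 9 stathmins and microtubule-severing genes or 12 kinases and phosphatases of tau and other microtubule-associated proteins. Unadjusted p under 0.05 was reached by 3, 2, 1 and 6 of them, in that order, against 25.6% of all genes. The smallest adjusted p in each belonged to Dync1i1, a dynein subunit gene (0.83, 0.0601), Sptbn4, a spectrin gene of the axon initial segment (0.98, 0.0959), Kif2a, a microtubule depolymerase gene (-0.27, 0.0936), and Gsk3a, a tau kinase gene (0.28, 0.065), where the first number is the log2 fold change and the second the edgeR adjusted p. Over all 10 lists together, 4 of 145 tested genes were lower and 6 higher, against 3.49% lower and 3.87% higher over all genes.

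The genes whose profile over the 6 libraries came closest to that of Nefl were not cytoskeletal. Likeness was the root mean square difference of log2 CPM, each gene centred on its control mean, over 8169 genes with a mean of at least 20 CPM. This difference counts the size of the fall that chose Nefl. A gene that fell much less ranks far from Nefl by construction, so the ranks are a description only. Rph3a, a synaptic vesicle protein gene, was closest, with a difference of 0.145 log2 units and 130.2, 137 and 107 CPM in controls against 46.5, 28.1 and 62.9 CPM in Zfhx3-CKO. Then came Cnr1, the cannabinoid receptor gene (0.202), Rgs2, a regulator of G-protein signalling (0.218), Vstm2a (0.232) and Syt4, a synaptotagmin gene (0.256). Cnr1 was at 99.8, 93.4 and 78.2 CPM in controls and 27.3, 18.1 and 41.2 CPM in Zfhx3-CKO, so it shared with Nefl the low value of library 2 and the higher one of library 3. That order was not particular to them, since library 2 was the lowest mutant library for 9 of the 10 genes and library 3 the highest for 10. Of the 10 genes, Stmn2 was nearest to Nefl, at rank 221 (0.85), followed by Dcx, Mapt, Map2 and Ina at ranks 680 to 754, Map1b at 1192 and Tubb3 at 1241. Nefm was farthest, at rank 4427 (1.17), and Nefh was under 20 CPM and not compared.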

How the data were processed

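RNA of whole LGE was sequenced with the Illumina TruSeq RNA kit, per the labels' protocols, which does not mark strand. Tools listed by the submitters' processing notes, with no role given, are HISAT2, StringTie, edgeR and bcl2fastq 2.17.1.14, and the listed builds are mm10 and GRCm38.p4. The authors deposited, per the file headers, raw counts and FPKM per gene, a baseMean signal, a log2 fold change and p-values. The counts were used for the main tests. The FPKM were used for levels between genes. Column names were tied to sample titles through a shorter table whose 3726 genes had identical values in both.

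Genes were filtered with filterByExpr (minimum count 10, leaving out 13108), scaled by TMM and tested with edgeR 4.0.16's quasi-likelihood test in R 4.3.3, Zfhx3-CKO against control, Benjamini-Hochberg adjustment over 16551 genes, threshold 0.05. CPM used TMM-scaled totals and, on the log2 scale, a prior count of 2. Alternatives were DESeq2 1.42.0, limma 3.58.1 on log2(FPKM + 1) and log2(FPKM + 0.1), other scalings and filters, a replicate block and leaving out libraries. On simulated counts 22, 42, 50 and 49 of 50 changed genes were recovered at 1.5-, 2-, 4- and 8-fold over 16329 genes. The members and the 10 gene lists were chosen with earlier results of these data known. Named were all members, Zfhx3, from each list the genes past the threshold (at most the 4 smallest p, otherwise the smallest p), from each marker list at most the 3 of highest mean CPM and 3 past the threshold, and the 5 genes most like Nefl. Prph, Pou4f1 and the 5 striatal markers that were higher were named after their values were seen.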

Additional observations from a re-analysis of the deposited data

How the results depend on the processing

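The log2 fold change of Nefl ran from -2.15 to -1.24 over the 16 alternatives. These reuse the libraries whose values chose Nefl, so they describe its dependence on processing and lend its fall no support. In none of them were members called higher. Members called lower numbered 1 (Nefl, whose fall chose the set), against 2 with no low-count filter, 0 (without control library 2) to 4 when each library was left out in turn and 5 without Zfhx3-CKO libraries 1 and 3. Signs reversed for 4 genes. Leaving out each library in turn, Nefm ranged from -0.051 (without Zfhx3-CKO library 3) to 0.17, and it was -0.11 without Zfhx3-CKO libraries 1 and 3. Nefh ranged from -0.43 to 0.25, Ina from -0.42 to 0.0074 and Mapt from -0.43 to 0.041, each highest without Zfhx3-CKO library 2. Over all genes, 1218 were called, against 1861 with no low-count filter, 1776 with DESeq2 and 289 to 2096 when each library was left out in turn. Genes of the 10 lists called lower numbered 4, against 1 to 28 when each library was left out and 25 without Zfhx3-CKO libraries 1 and 3. Those called higher numbered 6, against 2 to 10 when each library was left out, 13 with DESeq2 and 16 with no low-count filter. The labels do not say whether the replicate numbers pair the libraries. Deviations of same-numbered libraries correlated at -0.04, -0.08 and -0.25, which cannot exclude a pairing, as differently numbered libraries were not compared. In a fit with a replicate block, 312 genes were called over the whole table. Among them were 0 of the 9 members other than Nefl, 1 list gene lower and 2 higher. The cause of these differences was not tested. Nefh was not tested under the strict count filter or the FPKM filter, and Dcx has no value in the fit without X and Y genes, an alternative added after seeing the data. Depth limits Nefh most, at 17 to 65 counts a library.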
